A study of Mus musculus with 8 samples.

Results

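Gene expression 1 day after crush of both optic nerves was compared with that of uninjured mice in microglia of the lateral geniculate nucleus (LGN), the part of the thalamus in which axons of the retina end. The comparison takes 5 of the 8 RNA sequencing libraries of the series, 3 from mice 1 day after crush and 2 from uninjured mice. The 3 libraries from mice 3 days after crush enter the shared estimate of spread and are given beside some values. All mice were wild-type C57BL/6J males aged 2 to 3 months, and the uninjured mice are labelled as untreated, with no sham operation named. Cells were taken with magnetic beads against CD11b, so the preparation holds whatever the beads kept, and it is not stated if each library is from a single animal or from pooled animals. P-values therefore reflect how far these libraries scatter, and that scatter may be technical. What is described here is what changed beyond cytokine genes, immediate early genes and cell type markers, across the 17390 genes that passed a count filter.

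Microglia are the resident macrophages of the brain. They sense damage through receptors for complement, nucleotides, lipids and matrix, and pass these signals through kinases and transcription factors that change gene expression within hours. Such responses carry their own brakes, among them RNA-destabilizing proteins, inhibitors of phosphatases and kinases, and microRNAs. Crush of the optic nerve cuts the axons of retinal ganglion cells, whose endings lie among the microglia of the LGN.

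Library totals were 12700098 to 15489477 counts at 1 day and 17533499 and 17994861 in uninjured mice, and 18035 to 20220 genes had a count at 1 day against 22395 and 21663. The share of counts from mitochondrially encoded genes was 13.65%, 21.92% and 13.93% in day 1 replicates 1 to 3, against 22.55% and 21.34%. Day 1 replicate 3 correlated more closely with uninjured replicate 2 (0.926 over genes, log2 scale) than with either library of its own group. The summed level of 15 microglial markers was 9731 and 12733 CPM (read counts scaled by library size and then by the trimmed mean of M-values, TMM) without injury and 13542 to 16824 CPM at 1 day, with no marker at 0. Itgam, which encodes the CD11b that the beads bind, was itself at 597 and 419 CPM in uninjured mice and at 1366, 1133 and 1347 CPM at 1 day. It is among the genes called higher below (log2 fold change 1.34) and was at 304, 294 and 297 CPM at 3 days. Of its 5024 exonic bases in GENCODE M21, 3450 are shared with other annotation, most of all Gm49368, with an overlap on the same strand. Its reads may therefore be ambiguous.

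At 1 day 106 genes were called higher, which is 0.61% of all genes tested, and 202 were called lower, which is 1.16%, together 1.77% (edgeR's quasi-likelihood test, Benjamini-Hochberg adjusted p under 0.05). The 2 sets differed in level and in size of change. Genes that rose were well expressed before injury, with a median of 159 CPM in uninjured and 294 CPM in day 1 libraries, and moved by a median log2 fold change of 0.95, with 51 over 2-fold and 3 over 4-fold. Genes that fell had a median of 25.5 CPM in uninjured and 3.65 CPM in day 1 libraries and a median log2 fold change of -2.51, with 190 over 2-fold and 117 over 4-fold. That median mixes unlike falls. It was -1.79 in the 147 whose uninjured libraries were within 3-fold of each other. In the 52 over 3-fold higher in uninjured replicate 1 than in replicate 2 it was -6.47. Over all genes tested the median level was 7.98 CPM in uninjured mice, and the median log2 fold change was 0.06. Of the 106 risers, 22 belonged to the cytokine or immediate early lists and 1 to a marker list, and of the 202 falls, 0 and 16. At an unadjusted p under 0.05, 1270 of all genes tested were higher (7.30%) and 1299 lower (7.47%), the background for the counts of list members at that threshold given with each list. Without uninjured replicate 1 the counts were 11 higher and 28 lower, without day 1 replicate 1 they were 64 and 134, without day 3 replicates 1, 2 and 3 they were 62 and 129, 64 and 183, and 39 and 116, and without day 1 replicate 3, the library nearest to an uninjured one, they were 139 and 229. Scaling by library size alone gave 46 higher and 233 lower, which makes 16.5% of calls higher in place of 34.4%, and moved the median log2 fold change of all genes from 0.06 to -0.06. Over all genes, DESeq2 called 327 higher and 497 lower, and limma-voom 187 higher and 164 lower, against 106 and 202 by edgeR. The counts of list members called by DESeq2 and limma-voom are to be read against these larger numbers of rises.

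**Figure D1:**
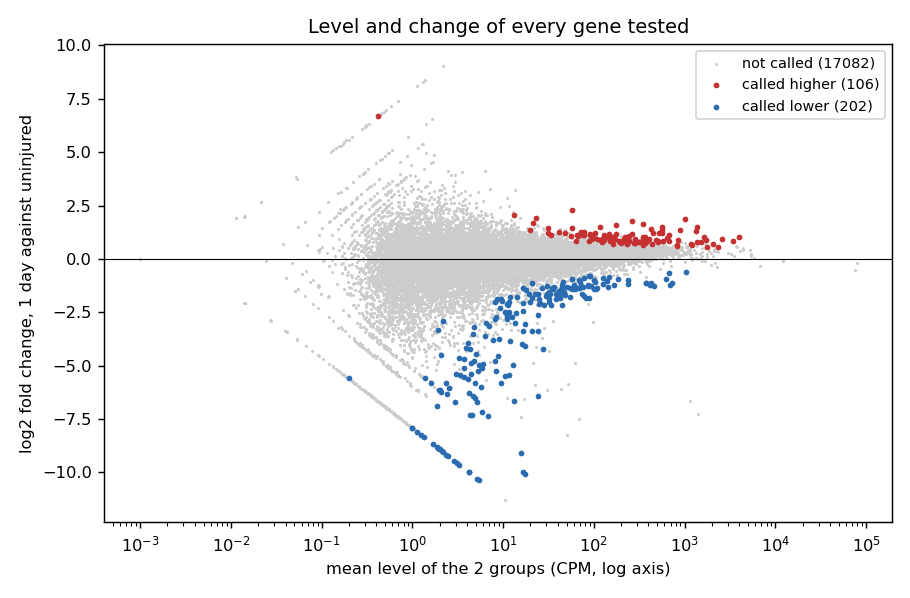
Each point is 1 of the 17390 genes tested. The horizontal axis is the mean of the 2 group levels in CPM (log axis) and the vertical axis the log2 fold change, 1 day against uninjured, with the 106 genes called higher in red and the 202 called lower in blue. The risers lie to the right at modest changes, and many of the falls lie to the left at large changes, where the diagonal rows of points are genes with few counts or none in 1 group.

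Itga5 (ENSMUSG00000000555), the alpha 5 integrin subunit that binds fibronectin together with beta 1 integrin, was at 208 and 262 CPM in uninjured mice and at 625, 644 and 593 CPM at 1 day. All 3 day 1 libraries stood more than 2-fold above both uninjured ones and lay close together (log2 fold change 1.40, SE 0.15, adjusted p = 0.00113), and at 3 days the gene was at 401 to 417 CPM. Gpr84, which senses medium-chain fatty acids, was at 393 and 478 CPM in uninjured mice and at 1446, 2122 and 1189 CPM at 1 day (1.86, SE 0.24, adjusted p = 0.00175). C5ar1, the receptor of the complement fragment C5a, went from 146 and 173 CPM to 406, 387 and 304 CPM (1.19, SE 0.17, adjusted p = 0.00348). Itga5 and Gpr84 were called in all 8 fits that omitted 1 library, while C5ar1 was lost without uninjured replicate 1 (adjusted p = 0.0794). Of the 1725 exonic bases of Gpr84 in GENCODE M21, 681 overlap Gm49482 on the other strand, and the sources do not give whether reads were counted by strand.

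Of 48 tetraspanins and other surface glycoproteins tested, 2 rose and 0 fell, with a median log2 fold change of 0.32. The risers were Plaur and Cd180. Plaur, the receptor of the urokinase plasminogen activator, was at 49.9 and 45.8 CPM in uninjured mice and at 115, 115 and 82.8 CPM at 1 day (1.13, SE 0.22, adjusted p = 0.0178). Cd180, a relative of Toll-like receptor 4, went from 626 and 668 CPM to 999, 1085 and 960.4 CPM (0.65, SE 0.14, adjusted p = 0.0339). Leaving out 1 library ended the call of Plaur for 3 of 8 libraries and that of Cd180 for 7 of 8, with adjusted p-values up to 0.19 and 0.39 without uninjured replicate 1. At an unadjusted p under 0.05, 17 of the 48 were higher and 2 lower, DESeq2 called 6 higher and 2 lower, and limma-voom 2 higher and 2 lower.

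Kdm6b (ENSMUSG00000018476), the demethylase that removes the repressive mark on lysine 27 of histone H3, was at 637 and 894 CPM in uninjured mice and at 1983, 2111 and 1645 CPM at 1 day. The lowest day 1 library was well above the higher uninjured one (log2 fold change 1.32, SE 0.21, adjusted p = 0.00559), and the 3 day libraries, at 1025, 633 and 844 CPM, overlapped the uninjured ones. On omitting uninjured replicate 1, the adjusted p of Kdm6b was 0.104. Chd4, the ATPase of the NuRD remodelling complex, was the other member of the chromatin list called. It went from 255 and 281 CPM to 414, 407 and 458 CPM (0.67, SE 0.15, adjusted p = 0.0393), but with any 1 of the 8 libraries left out its adjusted p was 0.0603 to 0.49. Of 49 chromatin modifying enzymes, 2 rose and 0 fell, and the median log2 fold change was 0.25. Before adjustment, at p under 0.05, 16 were higher and 3 lower, DESeq2 called 5 higher and 0 lower, and limma-voom 4 higher and 0 lower.

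Among 51 transcription factors of macrophages 2 rose and 1 fell, with a median of 0.32. Bcl6, a transcriptional repressor that restrains inflammatory genes, was at 223 and 162 CPM in uninjured mice and at 382, 363 and 367 CPM at 1 day (0.95, SE 0.17, adjusted p = 0.0129). The uninjured pair spread more widely than the 3 day 1 libraries, and the adjusted p was 0.105 without uninjured replicate 2. Ppard, a nuclear receptor for fatty acids, went from 58.0 and 54.2 CPM to 116, 125 and 134 CPM (1.16, SE 0.22, adjusted p = 0.0145) and lay at 49.2, 43.0 and 32.8 CPM at 3 days. Its adjusted p was 0.173 without uninjured replicate 1, and 6 of the 8 fits that omit 1 library called it. Stat6, which carries the signals of interleukins 4 and 13, was the single gene called among 39 components and inhibitors of JAK-STAT signalling. It went from 147 and 178 CPM to 291, 320.1 and 254 CPM (0.83, SE 0.17, adjusted p = 0.0217). Its call was lost on leaving out any of 4 libraries, with an adjusted p of 0.419 without uninjured replicate 1. The list had 0 genes called lower, 14 higher and 1 lower before adjustment (p under 0.05), and a median of 0.37; DESeq2 called 5 higher and 0 lower and limma-voom 4 higher and 0 lower.

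Hivep3, a large zinc finger protein, rose from 358 and 479 CPM to 817, 1003 and 912 CPM (1.12, SE 0.17, adjusted p = 0.00454), and Foxp4, a forkhead factor, from 20.6 and 42.1 CPM to 64.5, 111 and 77.5 CPM (1.43, SE 0.32, adjusted p = 0.0347). Hivep3 kept a level of 670.2 to 809 CPM at 3 days. Without uninjured replicate 1 the adjusted p was 0.0907 for Hivep3 and 0.505 for Foxp4, which was lost without any of 5 libraries.

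Among the other named risers, Rcan1 (ENSMUSG00000022951), an inhibitor of the phosphatase calcineurin, was at 325 and 301 CPM in uninjured mice and at 790, 566 and 815 CPM at 1 day (log2 fold change 1.21, SE 0.18, adjusted p = 0.00454). All 3 day 1 libraries were higher than both uninjured ones, as was so for all 106 risers. The 3 day libraries, at 222, 280.5 and 239.5 CPM, were lower than both uninjured ones. The call of Rcan1 held with each library left out in turn, at adjusted p-values up to 0.0497. Ppp1r15a (ENSMUSG00000040435), the GADD34 subunit that guides a phosphatase to the translation factor eIF2 alpha and so ends the integrated stress response, went from 127 and 169 CPM to 281, 358 and 257 CPM (1.01, SE 0.19, adjusted p = 0.0167), with an adjusted p of 0.377 on omitting uninjured replicate 1. It was the 1 gene called higher among 28 genes of that response, of which 0 were called lower. Their median was 0.39, 6 were higher and 2 lower before adjustment (p under 0.05), DESeq2 called 2 higher and 1 lower, and limma-voom 1 higher and 0 lower. Trib1, a pseudokinase that directs C/EBP alpha to degradation, was at 345 and 340 CPM in uninjured mice and at 604, 653 and 618 CPM at 1 day (0.87, SE 0.15, adjusted p = 0.00840), with little spread in either group. Its adjusted p was 0.111 without uninjured replicate 1.

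The promoters of Rcan1 and Ppp1r15a, and that of Ell2, an elongation factor of RNA polymerase II named here after its values were seen, hold the palindrome TGACGTCA, the cAMP response element that CREB and ATF proteins bind. They are shown as the 250 bases before the start site from RefSeq (build GRCm38.p6), read 5′ to 3′ on the strand of the gene, with the element and, at the downstream start of Rcan1, the AP-1 motif TGANTCA in capitals. The windows are chr16:92400079-92400328 (minus strand) for Rcan1, chr7:45526269-45526518 (minus strand) for Ppp1r15a and chr13:75707234-75707483 (plus strand) for Ell2.
Rcan1, downstream start: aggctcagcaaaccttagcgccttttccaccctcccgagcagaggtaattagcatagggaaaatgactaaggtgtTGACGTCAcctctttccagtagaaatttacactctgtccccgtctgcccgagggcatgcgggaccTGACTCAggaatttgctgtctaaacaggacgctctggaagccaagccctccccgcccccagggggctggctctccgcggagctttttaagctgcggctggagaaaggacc
Ppp1r15a: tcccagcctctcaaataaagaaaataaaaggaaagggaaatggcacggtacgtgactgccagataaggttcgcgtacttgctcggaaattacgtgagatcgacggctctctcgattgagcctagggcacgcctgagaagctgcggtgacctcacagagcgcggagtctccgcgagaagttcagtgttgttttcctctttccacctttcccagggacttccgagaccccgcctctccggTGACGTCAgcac
Ell2: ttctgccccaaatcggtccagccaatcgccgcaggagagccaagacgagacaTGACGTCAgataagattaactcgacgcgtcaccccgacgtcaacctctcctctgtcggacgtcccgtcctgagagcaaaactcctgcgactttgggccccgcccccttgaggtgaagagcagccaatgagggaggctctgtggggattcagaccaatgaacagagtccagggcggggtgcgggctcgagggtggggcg

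The element starts 175 bases before the start site in Rcan1, 12 in Ppp1r15a and 198 in Ell2, which was at 193 and 156 CPM in uninjured mice and at 372, 257 and 316 CPM at 1 day (adjusted p = 0.0335, called in 1 of the 8 fits that omit 1 library). Promoters of 300 bases, 250 before the start and 50 after it, were matched by symbol for 83 of the 106 risers, 143 of the 202 falls and 11420 of the genes tested, and both strands were searched. A gene with several start sites, such as Sgms2 with 6, counted once if any of them held the motif. The shares are therefore of genes and also depend on the number of start sites per gene, which was not adjusted for. TGACGTCA was found for 4 of the 83 risers, 4.82%, for 2.1% of the falls and for 3.34% of all genes tested. Its share among the risers was thus near the background. TGANTCA was in 15.7%, 11.2% and 6.63%, the E-box CACGTG in 12%, 6.99% and 11.3%, and GAGGAAGT, a core bound by PU.1, in 4.82%, 2.1% and 3.84%. GGANTTTCC, a form of the NF-kB motif, was in 7.23%, 2.8% and 1.65%. These shares rest on few genes, 13 of the 83 risers for AP-1 and 6 for the NF-kB form, and the risers matched include cytokine and immediate early genes.

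Mir155hg, the transcript from which microRNA 155 is cut, was at 14.7 and 18.6 CPM in uninjured mice and at 38.6, 45.5 and 51.7 CPM at 1 day (log2 fold change 1.44, SE 0.29, adjusted p = 0.0210). Every day 1 library was at least 2-fold above both uninjured ones, and the 3 day libraries lay at 21.5 to 25 CPM. The call was lost without uninjured replicate 1 (adjusted p = 0.393) and without 2 other libraries. The mature microRNAs themselves were not measured. Mir155hg hosts them at chr16:84714143-84714165 and chr16:84714182-84714202 (plus strand, RefSeq, GRCm38.p6), and they are shown because they are the product of this transcript, with the seed, bases 2 to 8, in capitals.
mmu-miR-155-5p: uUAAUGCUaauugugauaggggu
mmu-miR-155-3p: cUCCUACCuguuagcauuaac

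Of 39 genes of mRNA decay and translation control 3 rose and 0 fell, with a median of 0.21. Zfp36, or tristetraprolin, which binds AU-rich elements of cytokine mRNAs and starts their decay, was at 1278 and 2291 CPM in uninjured mice and at 3329, 3946 and 2891 CPM at 1 day (0.93, SE 0.21, adjusted p = 0.0402). It also stands in the immediate early list. Pan2, a catalytic deadenylase, went from 22.2 and 34.9 CPM to 80.2, 56.6 and 64.3 CPM (1.23, SE 0.29, adjusted p = 0.0429), and Eif4a1, the helicase of cap-dependent translation, from 213 and 215 CPM to 343, 401 and 319 CPM (0.73, SE 0.16, adjusted p = 0.0357). Of 45 splicing factors 1 rose and 0 fell, with a median of 0.17. It was Srrm2, a scaffold of nuclear speckles, from 1341 and 1484 CPM to 2079, 2110 and 2073 CPM (0.56, SE 0.13, adjusted p = 0.0451). All 4 calls lie near the threshold: without uninjured replicate 1 the adjusted p was 0.505 for Zfp36, 0.59 for Pan2, 0.39 for Eif4a1 and 0.491 for Srrm2, and Srrm2 was lost without any 1 of the 8 libraries. Of the fits that omit 1 library, 2 called Zfp36, 2 called Pan2 and 1 called Eif4a1. By p-values under 0.05 before adjustment the decay list had 10 genes higher and 1 lower and the splicing list 7 and 0. DESeq2 called 4 and 3 members higher and 0 lower, and limma-voom 4 and 3 higher and 0 lower.

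Of 53 genes of endosomal sorting and small Rab GTPases 2 rose and 0 fell (median 0.25). Snx10, a sorting nexin that serves endosome acidification, was at 107 and 121 CPM in uninjured mice and at 199, 212 and 213 CPM at 1 day (0.87, SE 0.17, adjusted p = 0.0210). Rab20, a GTPase of phagosome maturation, went from 42.6 and 40.5 CPM to 72.6, 119 and 75.8 CPM (1.10, SE 0.25, adjusted p = 0.0369). Outside that list, Bin2, a membrane-bending protein of blood cells, and Ptpn23, which helps sort receptors into endosomes, also rose. Bin2 was at 203 and 328 CPM in uninjured mice and at 649.9, 697 and 521 CPM at 1 day (1.23, SE 0.20, adjusted p = 0.00669). Ptpn23 was at 88.1 and 94.1 CPM in uninjured mice and at 198, 187 and 221 CPM at 1 day (1.15, SE 0.18, adjusted p = 0.00560). On omitting uninjured replicate 1, the adjusted p-values were 0.377 for Snx10, 0.378 for Rab20, 0.12 for Bin2 and 0.106 for Ptpn23. Of the 8 fits that omit 1 library, 5 called Snx10, 2 called Rab20, and 7 called Bin2 and Ptpn23. At an unadjusted p under 0.05 the list had 11 genes higher and 0 lower, DESeq2 called 3 higher and 0 lower, and limma-voom 2 higher and 0 lower.

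Among 24 amino acid transporters 2 rose and 0 fell (median 0.34). Slc7a8, an exchanger of large neutral amino acids, went from 227 and 328 CPM to 499, 541 and 437 CPM (0.83, SE 0.18, adjusted p = 0.0345). Slc15a3, a transporter of histidine and peptides in lysosomes, went from 219 and 264 CPM to 403, 376 and 467 CPM (0.78, SE 0.18, adjusted p = 0.0391), but 1541 of its 5491 exonic bases overlap Tmem132a, itself called higher, on the other strand. Of 43 regulators of G protein signalling and receptors 1 rose, Gnai2, an inhibitory G protein alpha subunit, from 118 and 151 CPM to 268, 213 and 239 CPM (0.84, SE 0.17, adjusted p = 0.0235). Of 40 ion channels 1 rose, Ttyh3, a membrane protein of the tweety family, from 95.2 and 137 CPM to 232, 245 and 196 CPM (0.95, SE 0.20, adjusted p = 0.0235). Without uninjured replicate 1 the adjusted p-values of these 4 genes were 0.547, 0.522, 0.455 and 0.466 in the order given, and scaling by library size kept the call of Ttyh3 but of no transporter and not of Gnai2. Of the 8 fits that omit 1 library, Slc7a8 and Slc15a3 were called in 2, Ttyh3 in 4 and Gnai2 in 5. By edgeR, 0 genes of the 3 lists were called lower. Before adjustment, at p under 0.05 they had 9, 4 and 6 higher and 1, 2 and 2 lower; DESeq2 called 3, 1 and 3 higher and 0, 1 and 2 lower, and limma-voom 2, 1 and 2 higher and 0 lower in each.

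The remaining large rises belong to no single process. Ckap2l, a protein of the mitotic spindle, was at 19.0 and 19.9 CPM in uninjured mice and at 106, 112 and 71.0 CPM at 1 day (log2 fold change 2.31, SE 0.26, adjusted p = 0.00113), and Mthfsl, a folate enzyme homologue, was at 83.9 and 90.4 CPM and then at 222, 329.7 and 236 CPM (1.59, SE 0.22, adjusted p = 0.00269). Both were called in all 8 fits that omitted 1 library. Clcf1, a cytokine of the interleukin-6 family, went from 37.0 and 54.8 CPM to 142, 89.0 and 97.9 CPM (1.26, SE 0.26, adjusted p = 0.0229). Rnf19b, a RING-type ubiquitin ligase, went from 162 and 154 CPM to 354, 367 and 278 CPM (1.08, SE 0.17, adjusted p = 0.00549). Zswim4 went from 39.2 and 44.5 CPM to 109, 118 and 77.4 CPM (1.28, SE 0.27, adjusted p = 0.0261). At lower levels, Ppp2r5d, a regulatory subunit of protein phosphatase 2A, was at 11.6 and 8.45 CPM and then at 48.1, 28.6 and 20.1 CPM (1.69, SE 0.40, adjusted p = 0.0464), and Wdr46, a nucleolar protein of ribosome assembly, was at 11.6 and 10.6 CPM and then at 28.9, 28.8 and 28.2 CPM (1.37, SE 0.30, adjusted p = 0.0342). The adjusted p without uninjured replicate 1 was 0.419 for Clcf1, 0.0711 for Rnf19b, 0.381 for Zswim4, 0.334 for Ppp2r5d and 0.387 for Wdr46. Clcf1 was called in 5 of the 8 fits that omit 1 library, Zswim4 in 3, and Ppp2r5d and Wdr46 in 1 each.

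**Figure D2:**
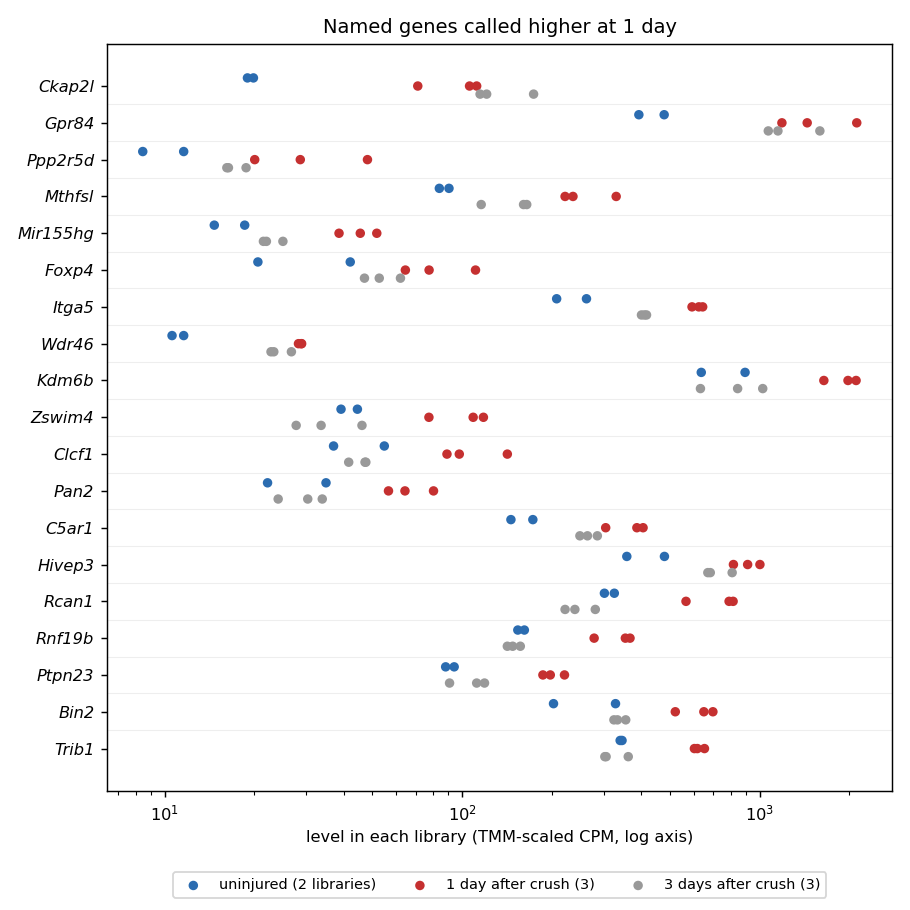
Level of each named riser in every library (TMM-scaled CPM, log axis), with uninjured libraries in blue, 1 day libraries in red and 3 day libraries in grey. For every gene shown the 3 red points lie above both blue ones, as the naming rule required. Over all genes tested, 2488 of 17390 had that order. In all genes shown but Ckap2l and Gpr84 the grey points lie below the red ones.

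Many other signalling and housekeeping lists leaned upward with few or no calls. Of 42 genes of MAP kinase and PI3 kinase signalling 36 had a positive log2 fold change and the median was 0.21, but edgeR called 0 in either direction. By p-values under 0.05 before adjustment, 9 were higher and 0 lower, DESeq2 called 2 higher and 0 lower, and limma-voom 1 higher and 0 lower. The smallest p was that of Pik3r5, a regulatory subunit of PI3 kinase gamma, at 308 CPM in uninjured and 485 CPM in day 1 libraries on average (0.66, adjusted p = 0.0515). Of 42 ribosome biogenesis genes 38 were positive, with a median of 0.37 and 0 called, 6 higher and 0 lower before adjustment (p under 0.05), 1 higher by DESeq2 and 0 by limma-voom. Mybbp1a, a nucleolar protein, had the smallest p in that list (53.9 and 88.4 CPM on average, 0.71, adjusted p = 0.0971). Of 23 cytosolic aminoacyl-tRNA synthetases 19 were positive (median 0.25), with 0 called by edgeR, DESeq2 or limma-voom and 0 at an unadjusted p under 0.05. Over all genes tested 9393 of 17390 were positive. Of the 15 microglial markers 13 were positive, with a median of 0.44. At an unadjusted p under 0.05, 10 of them were higher and 0 lower. Whether these lists leaned upward apart from such markers was not tested.

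Lists of cell death regulators, p53 targets, autophagy, arginine and polyamine metabolism, iron and heme handling, fatty acid oxidation, NAD metabolism, and the circadian clock with the glucocorticoid response had 0 calls by edgeR. Their medians ran from -0.21 for the clock and glucocorticoid list to 0.25 for the cell death regulators. At an unadjusted p under 0.05 the cell death list had 8 genes higher and 0 lower, the p53 list 7 and 3, autophagy 5 and 0, arginine and polyamine metabolism 0 and 0, iron 3 and 4, fatty acid oxidation 1 and 3, NAD 2 and 2, and the clock list 3 and 3, to be read against 7.30% higher and 7.47% lower over all genes tested. DESeq2 called at most 4 members higher (cell death) and 3 lower (clock) in any of these lists, and limma-voom at most 2 higher (cell death) and 1 lower. Close to the threshold were Cdkn1a, the p53-induced cell cycle inhibitor p21 (0.90, adjusted p = 0.0577), and Klf9, a glucocorticoid-induced factor (-1.23, adjusted p = 0.0567).

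**Figure D3:**
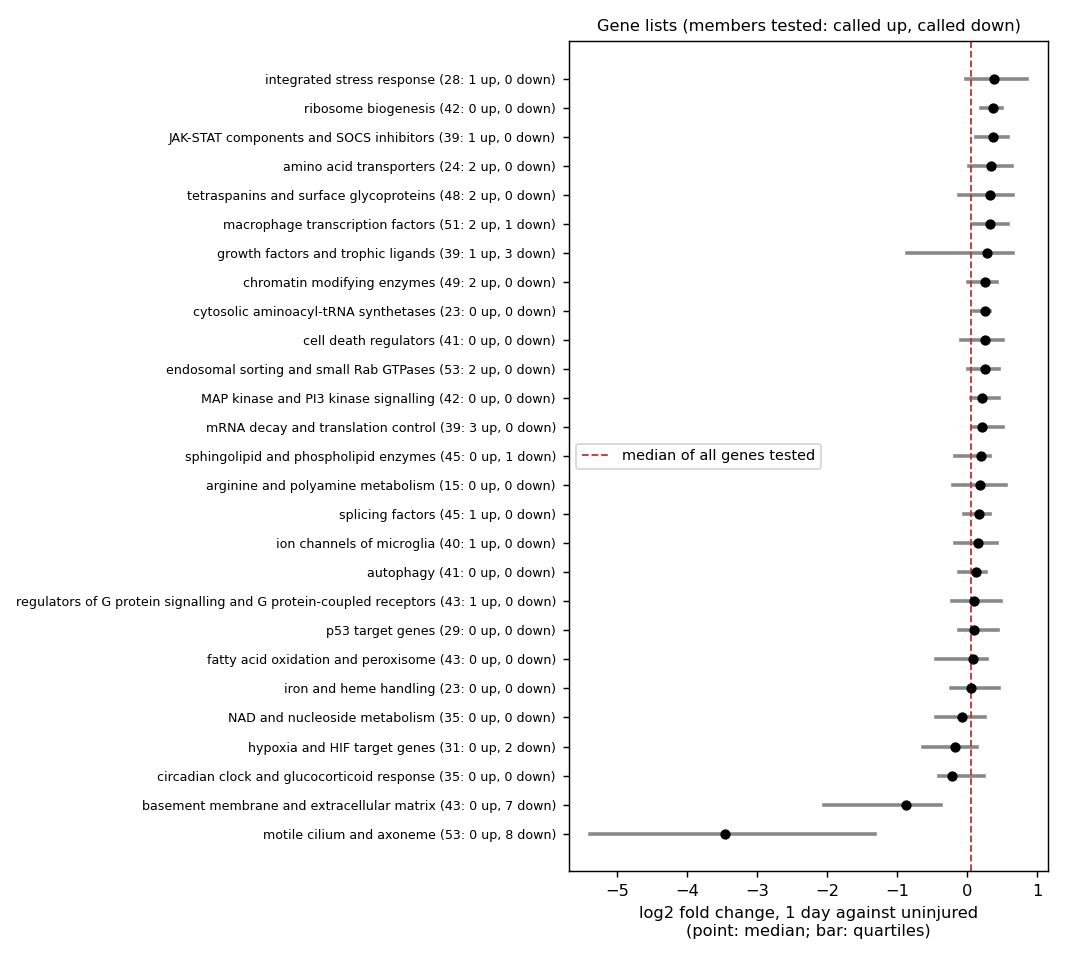
For each of 27 gene lists the black point is the median log2 fold change of its tested members, 1 day against uninjured, and the grey bar spans the quartiles. The dashed red line is the median of all genes tested, 0.06. Most lists lie slightly to the right of that line, while extracellular matrix (-0.87) and the motile cilium (-3.46) lie far to the left.

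The 202 falls split by how alike the uninjured libraries were, a division made after the values were seen. In 147 of them the uninjured libraries were within 3-fold of each other, and these had median levels of 45.4 CPM in uninjured mice, 13 CPM at 1 day and 33.7 CPM at 3 days. In 52 of them uninjured replicate 1 was over 3-fold above uninjured replicate 2, with median levels of 8.88, 0.0802 and 6.89 CPM, and in 3 replicate 2 was the higher. On omitting uninjured replicate 1, 22 of the 147 and 6 of the 52 were still called. In all, 78 falls (38.6%) had a day 1 mean under 1 CPM, and 22 had no count in any day 1 library. For those 22 the fold is a lower bound set by 3 counts over the group, and the bounds ran from 5.45 to 149. The median log2 fold change was -1.79 in the 147 and -6.47 in the 52, or -5.82 in the 52 with these bounds.

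**Figure D4:**
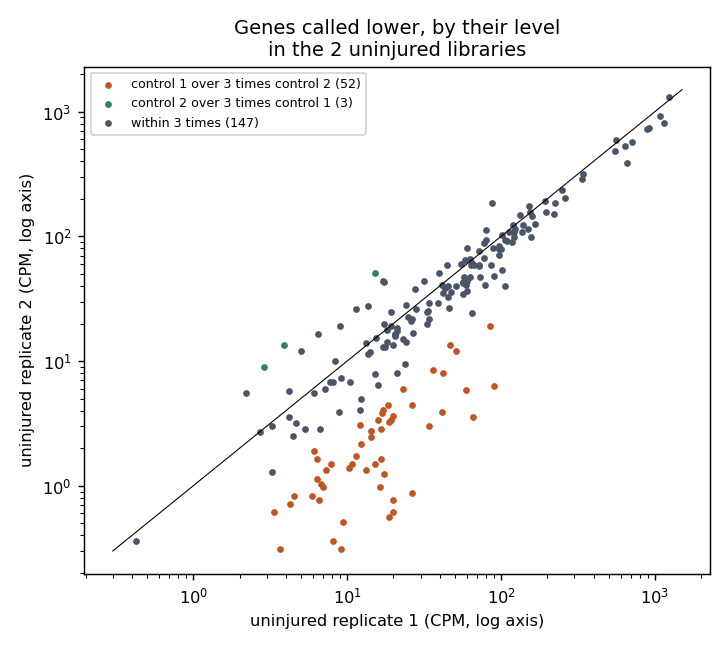
Each point is 1 of the 202 genes called lower, placed by its level in uninjured replicate 1 and uninjured replicate 2 (CPM, log axes), with the line of equality. The 147 genes within 3-fold lie along the line over the whole range of levels, and the 52 genes in orange lie below it, where replicate 1 is the higher.

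Several of the falls with the smallest p in the first set are genes known from vessel walls and barriers. Sema3c (ENSMUSG00000028780), a secreted semaphorin, was at 47.5 and 36.0 CPM in uninjured mice and at 5.61, 7.14 and 7.33 CPM at 1 day. The day 1 libraries were all more than 4-fold below the lower uninjured one (log2 fold change -2.64, SE 0.30, adjusted p = 0.00113), and the 3 day libraries were at 29.1 to 37.3 CPM. Cxcl12, a chemokine made by endothelial and stromal cells, went from 123 and 115 CPM to 26.4, 50.3 and 31.2 CPM (-1.72, SE 0.24, adjusted p = 0.00301). Heg1, a partner of the cerebral cavernous malformation proteins at endothelial junctions, was at 549.7 and 480.3 CPM and then at 255, 207 and 242 CPM (-1.13, SE 0.15, adjusted p = 0.00244). Adgrf5, an adhesion receptor of endothelium, was at 711 and 575 CPM and then at 233, 262 and 303 CPM (-1.27, SE 0.17, adjusted p = 0.00269).

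Further members of this set follow. Their low day 1 libraries and uninjured ones within 3-fold come from how they were chosen. Itih5, a matrix-binding inter-alpha-trypsin inhibitor chain, was at 113 and 109 CPM in uninjured mice and at 40.0, 31.5 and 36.2 CPM at 1 day (-1.63, SE 0.19, adjusted p = 0.00126). Prex2, an exchange factor for Rac, was at 154 and 157 CPM and then at 63.9, 49.7 and 66.2 CPM (-1.37, SE 0.19, adjusted p = 0.00301). Tmtc1, an enzyme that adds mannose to cadherins, had a log2 fold change of -1.77 and Ccdc141 one of -1.82 (adjusted p = 0.00301 and 0.00270). Sptbn1, the beta II spectrin of the membrane skeleton, was at 1138 and 814 CPM and then at 440.3, 332 and 473 CPM (-1.23, SE 0.18, adjusted p = 0.00324). Sema3c, Cxcl12, Heg1, Adgrf5, Itih5, Prex2, Tmtc1 and Ccdc141 were called in all 8 fits that omitted 1 library, and Sptbn1 had an adjusted p of 0.0584 without uninjured replicate 1.

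Markers of other cells moved in the same libraries. The summed level of 15 endothelial markers was 2404 and 2206 CPM in uninjured mice and 1273, 1079 and 1127 CPM at 1 day. That of 11 mural cell markers was 1610 and 1386 CPM and then 901, 749 and 926 CPM. Summed monocyte markers were at 668 and 701 CPM and then at 384, 409 and 378 CPM. Most of that sum was Fn1, at 558 and 591 CPM and then at 238, 262 and 252 CPM. Of 7 monocyte markers tested, 6 had a positive log2 fold change (median 0.65), and Fn1 alone was called, as lower. Summed erythroid markers were at 6.09 and 4.74 CPM and then at 1.48, 1.04 and 1.36 CPM. No endothelial or mural marker was at 0 in all libraries of either group, and 9 of the 15 endothelial and 1 of the 11 mural markers were called lower. Summed astrocyte markers were at 238 and 214 CPM and then at 187, 164 and 206 CPM. Neutrophil markers went the other way, from 55.3 and 42.5 CPM to 80.3, 153 and 64.0 CPM with 0 of 10 called by edgeR and 2 higher and 0 lower before adjustment (p under 0.05). In bulk libraries fewer cells of a type and less RNA per cell cannot be told apart, and the part of these markers in the changes given here was not tested.

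Genes of the extracellular matrix fell in greater number than those of most lists. Of 43 basement membrane and matrix genes 7 fell and 0 rose, and the median log2 fold change was -0.87. Before adjustment, at p under 0.05, 23 were lower and 2 higher (7.47% and 7.30% of all genes tested were), DESeq2 called 14 lower and 0 higher, and limma-voom 4 lower and 0 higher. Fn1, which encodes fibronectin, the ligand of the alpha 5 integrin above, also stands in the monocyte marker list and was at 558 and 591 CPM in uninjured mice and at 238, 262 and 252 CPM at 1 day. Both groups were tight and far apart (-1.20, SE 0.17, adjusted p = 0.00324), the call held with each library left out, and the 3 day libraries were at 342, 521 and 382 CPM. Col1a2, a chain of fibrillar collagen I, was at 19.2 and 19.2 CPM and then at 2.26, 3.37 and 4.37 CPM (-2.52, SE 0.44, adjusted p = 0.00995, but 0.149 without uninjured replicate 1).

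Outside that list, Hmcn1, the matrix protein hemicentin 1, was at 39.7 and 51.2 CPM in uninjured mice and at 10.4, 10.3 and 10.2 CPM at 1 day (-2.14, SE 0.27, adjusted p = 0.00173), and all 8 fits that omitted 1 library called it. Timp3, the matrix-bound inhibitor of metalloproteinases, went from 341 and 317 CPM to 153, 113 and 166 CPM (-1.19, SE 0.18, adjusted p = 0.00421) and stayed at 152 to 179.6 CPM at 3 days. Its adjusted p was 0.0551 without uninjured replicate 1, and 1733 of its 8144 exonic bases overlap Syn3 on the other strand. Frem1 and Fras1, partners in a basement membrane complex of epithelia, followed uninjured replicate 1. Frem1 was at 20.0 and 0.773 CPM in uninjured mice and had no count at 1 day, at least 141-fold lower but at least 10.7-fold against uninjured replicate 2 alone, and Fras1 was at 34.1 and 2.99 CPM and then at 0.0779, 0.722 and 0.185 CPM. Their adjusted p-values were 0.00840 and 0.0164, and 0.166 and 0.564 without uninjured replicate 1. Of the 8 fits that omit 1 library, 6 called Col1a2, 7 Frem1 and 5 Fras1. The other 3 matrix genes called were Fbln1, Col12a1 and Col6a1, and without uninjured replicate 1 the list had 1 call, without day 1 replicate 1 it had 3 and without uninjured replicate 2 it had 4.

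Of 39 growth factors and trophic ligands 1 rose, the Clcf1 given above, and 3 fell, with a median of 0.28. Sema7a, a membrane-anchored semaphorin, was at 65.2 and 61.7 CPM in uninjured mice and at 12.1, 21 and 24.5 CPM at 1 day (-1.72, SE 0.28, adjusted p = 0.00678). Ptn, the neurite-promoting factor pleiotrophin, went from 97.7 and 71.2 CPM to 38.9, 33.6 and 37.9 CPM (-1.20, SE 0.24, adjusted p = 0.0210). Bmp4, a bone morphogenetic protein, was low throughout, at 2.88 and 9.01 CPM and then at 0.0779, 0 and 0.308 CPM (adjusted p = 0.0259). Without uninjured replicate 1 the adjusted p-values were 0.084, 0.442 and 0.0864, and the list had 0 calls. Of the 8 fits that omit 1 library, Sema7a and Ptn were called in 7 and Bmp4 in 4. By p-values under 0.05 before adjustment, 8 members were higher and 7 lower, DESeq2 called 2 higher and 3 lower, and limma-voom 3 higher and 2 lower.

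Hypoxia and HIF target genes were one of the lists with a negative median, -0.17, with 2 of 31 called lower and 0 higher. Ndrg1, a hypoxia-responsive protein of differentiation and lipid trafficking, went from 71.6 and 57.6 CPM to 23.8, 28.6 and 23.7 CPM (-1.35, SE 0.23, adjusted p = 0.00912). Epas1, the HIF-2 alpha factor that is abundant in endothelium, went from 1230 and 1315 CPM to 929, 838 and 708 CPM (-0.63, SE 0.14, adjusted p = 0.0390). On omitting uninjured replicate 1, the adjusted p-values were 0.194 and 0.215, and 7 and 3 of the 8 fits that omit 1 library called them. At an unadjusted p under 0.05, 2 were higher and 6 lower, DESeq2 called 1 higher and 4 lower, and limma-voom 2 higher and 2 lower. Sgms2, a sphingomyelin synthase, was the 1 gene called lower of 45 sphingolipid and phospholipid enzymes, with 0 higher, and went from 56.6 and 34.2 CPM to 11, 15.3 and 18 CPM (-1.62, SE 0.31, adjusted p = 0.0167, but 0.475 without uninjured replicate 1). In that list 2 were higher and 5 lower before adjustment (p under 0.05), DESeq2 called 1 higher and 3 lower, and limma-voom 0 higher and 1 lower.

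The largest falls were of genes that were at or near 0 at 1 day and were far higher in 1 uninjured library than in the other. Lrriq1 (ENSMUSG00000019892), a leucine-rich repeat and IQ motif protein placed here in the cilium list, was at 18.6 and 3.25 CPM in uninjured mice, was without a count at 1 day, and was at 12.6, 1.71 and 12.1 CPM at 3 days. It was at least 149-fold lower (adjusted p = 0.00549), or at least 45-fold lower against uninjured replicate 2 alone, and was called with each library left out. Htr2c, the serotonin 2C receptor, which is abundant in choroid plexus, was at 65.9 and 3.55 CPM in uninjured mice, then at 0, 0.0802 and 0 CPM, and after 3 days at 36.7, 8.19 and 29.4 CPM (adjusted p = 0.0166, but 0.236 without day 1 replicate 2 and also lost without day 1 replicate 1 or 3). Prr32, Kcnk1, a potassium channel of the two-pore family, Dsg2, a desmosomal cadherin, Esrrg, an orphan nuclear receptor, and Kcnh1, a voltage-gated potassium channel, had no day 1 count and were at least 116-, 114-, 89.7-, 83.9- and 79.5-fold lower. Against uninjured replicate 2 alone these bounds were 37.8-, 34.2-, 24.3-, 20.6- and 19.3-fold. These 5 lost their call without uninjured replicate 1, with adjusted p-values of 0.0584 to 0.252.

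**Figure D5:**
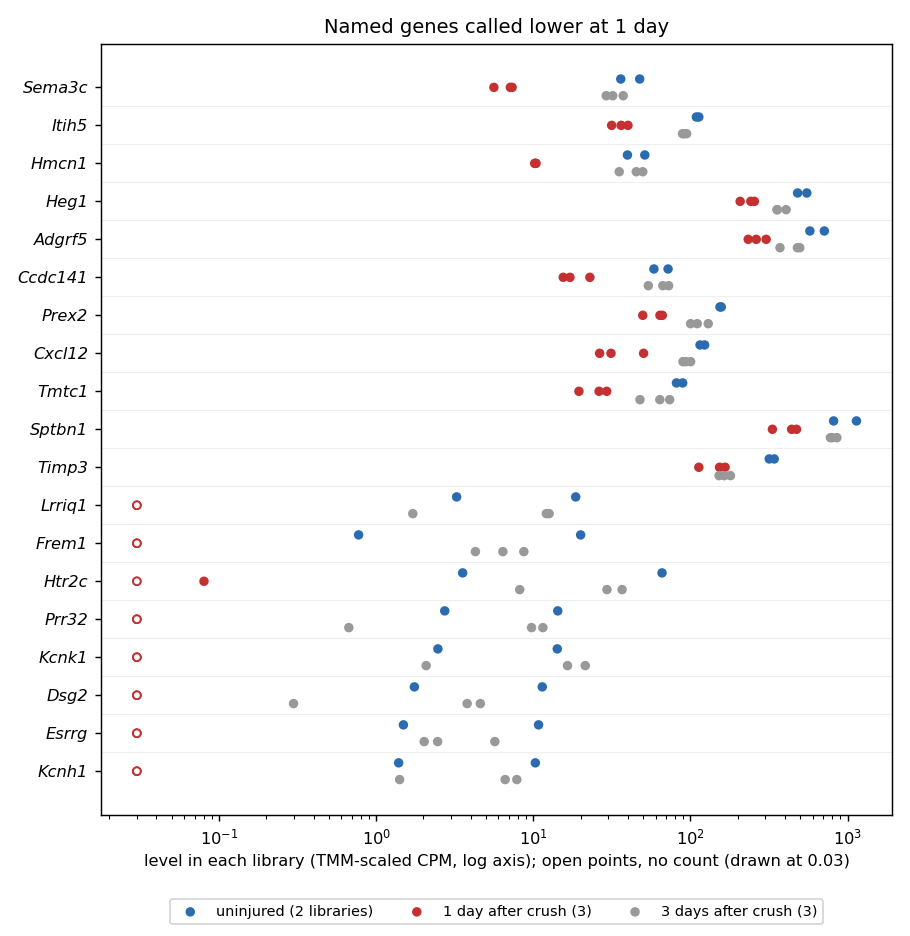
Level of each named fall in every library (TMM-scaled CPM, log axis), with uninjured libraries in blue, 1 day libraries in red and 3 day libraries in grey, and open points for libraries with no count, drawn at 0.03. Every red point lies below both blue ones, as the naming rule required. Over all genes tested, 2610 of 17390 had that order. In the upper 11 genes the uninjured libraries lie close together. In the lower 8 the uninjured libraries differ severalfold and nearly all red points are open.

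Motile cilia, the beating projections of ependymal cells, are built on an axoneme of microtubules and dynein arms. Of 53 cilium and axoneme genes tested 8 fell and 0 rose, and the median log2 fold change was -3.46, or -2.94 with the 9 genes that had no day 1 count set to their bound. Before adjustment, at p under 0.05, 29 were lower and 1 higher. Cfap44, a protein tied to the axoneme, was at 19.9 and 0.618 CPM in uninjured mice and at 0, 0 and 0.246 CPM at 1 day, and Cfap65 was at 18.8 and 0.567 CPM and then at 0, 0.241 and 0.0616 CPM. Drc7, a subunit of the nexin-dynein regulatory complex, was at 16.6 and 1.65 CPM and then at 0.0779, 0.0802 and 0 CPM. Their adjusted p-values were 0.0231, 0.0161 and 0.0175, and 0.809, 0.767 and 0.361 without uninjured replicate 1, and 5, 5 and 4 of the 8 fits that omit 1 library called them. The list had 1 call without uninjured replicate 1 or without day 1 replicate 1, 3 without day 1 replicate 2 or 3, 4 without day 3 replicate 1 or 3 and 10 without uninjured replicate 2, and DESeq2 called 15 lower while limma-voom called 0. The summed level of 11 choroid plexus and ependymal markers was 9934 and 883 CPM without injury, 6.08, 118 and 7.58 CPM at 1 day and 6764, 1062 and 3909 CPM at 3 days. Among them Folr1 and Otx2 were at 0 in all 3 day 1 libraries, and their part in the falls was not tested.

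The promoters of Lrriq1 and Cfap44 hold GTTGCCA, the core of the X-box bound by RFX factors, which drive genes of cilia. They are shown as the 250 bases before the start site from RefSeq (GRCm38.p6), 5′ to 3′ on the gene's strand, with the core in capitals on either strand (TGGCAAC where it lies on the other) and, in Lrriq1, an AP-1 motif. The windows are chr10:103236323-103236572 (minus strand) and chr16:44394549-44394798 (plus strand).
Lrriq1: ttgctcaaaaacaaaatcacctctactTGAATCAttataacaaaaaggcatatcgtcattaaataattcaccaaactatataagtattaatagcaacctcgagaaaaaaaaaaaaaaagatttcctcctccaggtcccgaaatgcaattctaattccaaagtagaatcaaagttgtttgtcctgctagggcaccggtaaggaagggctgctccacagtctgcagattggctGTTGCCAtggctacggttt
Cfap44: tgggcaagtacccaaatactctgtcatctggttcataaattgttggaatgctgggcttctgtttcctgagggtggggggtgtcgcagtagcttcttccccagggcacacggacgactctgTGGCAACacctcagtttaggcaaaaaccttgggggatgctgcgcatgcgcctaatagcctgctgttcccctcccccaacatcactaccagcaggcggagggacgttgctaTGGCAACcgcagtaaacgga

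The core starts 19 bases before the start of Lrriq1 and 130 and 20 before that of Cfap44. Counted by gene, it was found for 8 of the 143 falls, 5.59%, for 0 of the 83 risers and for 4.65% of all genes tested. Its share among the falls was thus near the background. The other called genes of the cilium list with a matched promoter, Drc7, Dnah6, Cfap69, Spag16 and Wdr63, did not hold the core. A match is a description of these letters and does not show binding.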

How the data were processed

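The authors deposited unnormalized counts of reads for Ensembl gene IDs, in 1 column per library. According to the submitters' processing notes, the tools included FastQC, STAR and HTSeq and the build was mm9. Tool versions, the annotation and strandedness were not given in the sources. Per the labels' protocols, RNA was linearly amplified. GENCODE M21 gave symbols for 25939 of 26062 gene IDs, and IDs with none held 0.117% of counts. Groups came from the labels, and columns were matched by name. Sequences, on GRCm38.p6, came from RefSeq.

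The tests used edgeR 4.0.16 (R 4.3.3), with filterByExpr over the 3 groups (17390 genes kept), TMM factors, and a quasi-likelihood fit, robust, to all 8 libraries, which share 1 estimate of spread because the uninjured group has 2, followed by the contrast of day 1 against uninjured. Calls have a Benjamini-Hochberg adjusted p under 0.05. The biological coefficient of variation was 51.1%. On simulated counts of this comparison (17390 genes, 5 runs) 10.0% of 2-fold and 44.6% of 4-fold changes were recovered, and 3.19% of calls were false, so small changes can be missed at this number of libraries. Replicate libraries differed by more than counting noise (chi-square divided by its degrees of freedom was 31.4 to 64.8), and each counted once.

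Members and lists were chosen with earlier results of these data known. Named genes are the 12 largest rises, the 12 rises of smallest p, the 8 largest falls, the 12 falls of smallest p with a day 1 mean of at least 5 CPM, and up to 4 called members of each of the 28 lists. For the first 4 parts a gene had to be called, average 5 CPM or more in whichever group was higher, and have groups that do not overlap. Members of the fixed cytokine and NF-kB, immediate early and heat shock, and marker lists could not enter these parts, though a cytokine in none of them could. Nor could predicted genes, clones, pseudogenes, small RNAs or segments of receptor loci. Alternatives were DESeq2 1.42.0, limma-voom (limma 3.58.1), other scaling and filters, equal depth, a fit of 5 libraries, a replicate block and each library left out. 1 gene and 1 list that the rules take are not reported here.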

Additional observations from a re-analysis of the deposited data

How the results depend on the processing

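The counts of calls depended on the fit. The direction of none of the 67 named genes turned in any of the 18 alternative fits that tested it. In each of these genes every day 1 library lay on the same side of both uninjured ones. Their direction could therefore hardly turn on refitting the same counts, and its stability is not separate evidence for the changes. Against 106 higher and 202 lower, DESeq2 gave 327 and 497, including all of both sets, and a fit of the 5 uninjured and day 1 libraries alone gave 25 and 85. Scaling by library size gave 46 higher and 233 lower, and limma-voom 187 higher and 164 lower. With mitochondrially encoded genes left out 26.6% of calls were higher, with 5 libraries alone 22.7%, and with limma-voom 53.3%. Leaving out 1 library gave 11 to 139 higher and 28 to 229 lower. The lowest counts came without uninjured replicate 1 and the highest without day 1 replicate 3. Of the 67 named genes, 19 were called without uninjured replicate 1, 37 with 5 libraries alone, 51 with library size scaling, 53 with limma-voom and 67 with DESeq2, and 16 were called in every setting that tested them. Without a filter 141 and 302 were called, with a stricter one 107 and 197, and with libraries thinned to equal depth 125 and 212.

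The replicate numbers are shared between groups. The deviations of same-numbered uninjured and day 1 libraries correlated at -0.0225 and 0.0174, and those of uninjured and day 3 libraries at 0.06 and 0.0906. Between day 1 and day 3 the values were -0.0306, -0.0599 and -0.0237. With 2 uninjured libraries the deviations of that group mirror each other, so this check can show little. Libraries were not treated as pairs in the main fit. With the replicate block 98 were higher and 203 lower, of which 77 and 157 were also called without it. Among the limits are the 2 uninjured libraries, which set every fold change, and the low counts at 1 day. Of the falls, 78 rest on a day 1 mean under 1 CPM.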

Other observations

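Risers in no list, chosen here after their values were seen, are given here as single genes, with no list behind them. Dot1l, the methyltransferase of lysine 79 of histone H3, was at 148 and 199 CPM in uninjured mice and at 341, 322 and 282 CPM at 1 day. Baz1a, a subunit of ISWI remodelling complexes, was at 227 and 231 CPM and then at 403, 383 and 422 CPM, and Nfya, a subunit of the CCAAT-binding factor, at 148 and 149 CPM and then at 267, 306 and 268 CPM. Bcor, a corepressor that binds Bcl6, went from 142 and 156 CPM to 275, 245 and 238 CPM. Nfatc2, a factor that calcineurin activates, went from 86.9 and 90.9 CPM to 165, 164 and 138 CPM. Lcp2, or SLP-76, an adaptor of immune receptors, was at 344 and 395 CPM and then at 583, 736 and 594 CPM, and Malt1, a paracaspase upstream of NF-kB, at 82.9 and 88.0 CPM and then at 171, 142 and 144 CPM. By edgeR the adjusted p was 0.0213 for Dot1l, 0.0141 for Baz1a, 0.00923 for Nfya, 0.0263 for Bcor, 0.0437 for Nfatc2, 0.0211 for Lcp2 and 0.0299 for Malt1. Of the 8 fits that omit 1 library, 6 called Baz1a and Nfya, 5 Dot1l and Lcp2, 3 Bcor, 2 Malt1 and 1 Nfatc2, and each lost its call without uninjured replicate 1. Nusap1, a spindle protein, fell from 4.22 and 3.55 CPM to 0.312, 0.642 and 0.554 CPM, a call that no single omitted library ended, and was at 56.9 to 97.8 CPM at 3 days. Spag5 and Ncapg, also of the mitotic apparatus, fell from under 5 CPM and were called in 0 and 1 of those 8 fits, and Melk, a mitotic kinase without a count in uninjured mice, rose to 0.545, 1.12 and 0.862 CPM and was called in 4.

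Among the 308 called genes, of which 34.4% were higher, 12 neighbouring pairs lay within 100 kb of each other in GENCODE M21, and 11 of the 12 were called in the same direction. The loci overlap for Selp and Gm16587, Slc15a3 and Tmem132a, Gm14023 and Il1a, and Nfkb1 and Gm43430. The directions within these pairs need not be independent. Gpr84 and Itga5 lie on the same strand with 1 protein-coding gene between them. Ckap2l, Gm14023, Il1a and Il1b follow one another with none between, and all 4 rose. Gm14023 was at 279.5 and 348 CPM in uninjured mice and at 647, 1021 and 740.1 CPM at 1 day, and it overlaps Il1a on the other strand, so without a known strand setting their reads cannot be told apart. Gm43430 lies within the locus of Nfkb1 on the same strand, and both rose. The pair that went opposite ways was Kcne2, a choroid plexus marker that fell, and Rcan1, which rose. Whether neighbours were called together more often than other genes was not tested.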
